A study of Mus musculus with 6 samples.

Results

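Elastic fibre and crosslinking genes were followed here as a list of 10 genes, Eln, Fbn1, Fbln1, Fbln5, Efemp1, Efemp2, Lox, Loxl1, Loxl2 and Mfap4, out of 49315 mouse genes counted. The genes were chosen by name for what their products do, with earlier results of these data known, and each name matched 1 gene of the table. All 10 had at least 10 reads in every library, the lowest being 16 reads of Efemp1 in BLM Lamp1-depleted cells, so that no gene of the list was lost to low counts. Among all genes, 15977 had at least 10 reads in every library.

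Elastic fibres give the alveolar walls, airways and blood vessels of the lung their recoil. They form when tropoelastin is laid onto a scaffold of fibrillin microfibrils with the help of fibulins, and lysyl oxidases then turn lysine residues into covalent crosslinks. In the lung these proteins are made mainly by fibroblasts, smooth muscle cells and other cells of the vessel wall, and lysyl oxidases also crosslink the collagens that accumulate in fibrosis.

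Polyadenylated RNA was sequenced from lung cell suspensions of C57BL/6 mice (males of the C57BL/6J strain by the study's methods) that had received saline (sham) or bleomycin sulfate (BLM), a drug that injures the lung and leads to fibrosis, by the oropharyngeal route. The lungs were taken 21 days after instillation, and lungs of several mice of the same group were pooled before dissociation, so that animals cannot be told apart. BLM doses in the protocol were 3 mg/kg or 3.5 to 4 mg/kg; which of these the sequenced mice received, and their age, are not given in the sources used here. From each treatment 3 libraries were made, from unsorted cells, from cells with surface Lamp1 (Lamp1-enriched) and from the cells left without it (Lamp1-depleted), 1 library for each of the 6 conditions. Lamp1 is a lysosomal membrane protein that can reach the cell surface, and the study asked what the cells that carry it there express. Counted reads, in the order unsorted, Lamp1-depleted, Lamp1-enriched, came to 40742095, 39609874 and 45090413 in sham and to 39728284, 30236120 and 52918696 in BLM. The BLM Lamp1-depleted library stood apart: 38.4% of its reads fell on the noncoding gene Gm26917, chosen after its values were seen, against at most 7.10% in any other library. All comparisons with that library rest on it and could not be repeated without it.

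Levels are given as reads and as CPM after scaling the libraries by the trimmed mean of M-values (TMM). A difference is a log2 ratio of 2 libraries with a 95% interval that covers counting error only, since there was no replicate of any condition; such an interval compares the libraries and not the conditions, and no p-value was computed. A gene was counted as past the fold at a 4-fold difference, a log2 ratio of at least 2 or at most -2, among genes whose higher library held 10 reads or more. In libraries made from mixed cells, fewer cells of a type and less RNA per cell cannot be told apart. The 7 comparisons share libraries and are not independent of each other. Lamp1 itself, the sort antigen, stood at 491 CPM in sham Lamp1-enriched and 146 CPM in sham Lamp1-depleted cells, and at 378 and 111 CPM in the same fractions after BLM. Its log2 ratio between the sorted fractions was 1.75 (1.71 to 1.79) in sham and 1.77 (1.71 to 1.83) in BLM, in the direction of the labels. Against unsorted cells it was higher in sham, at 0.62 (0.59 to 0.65), but lower in BLM, at -0.41 (-0.44 to -0.38), with 378 CPM in Lamp1-enriched and 501 CPM in unsorted cells. By RNA, the BLM Lamp1-enriched library thus held less Lamp1 than the unsorted cells it is compared with.

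Eln, which encodes tropoelastin, the core of the fibre, lies on chromosome 5 (chr5:134702593-134747323, minus strand, GRCm38). In sham-treated mice it had 4140 reads (85.3 CPM) in unsorted, 546 (12.0 CPM) in Lamp1-depleted and 3558 (77.3 CPM) in Lamp1-enriched cells. In BLM-treated mice it had 6792 reads (172 CPM), 1041 reads (49.3 CPM) and 13967 reads (256 CPM) in the same order. Eln was thus higher after BLM in every fraction and was lowest in the Lamp1-depleted cells of each treatment. From the highest library, BLM Lamp1-enriched, to the lowest, sham Lamp1-depleted, each library differed from the next beyond counting error.

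Fbn1 encodes fibrillin, the main protein of the microfibril scaffold (chr2:125300594-125507993, minus strand), and Mfap4 a microfibril-associated glycoprotein that binds tropoelastin and fibrillin (chr11:61485431-61488900, plus strand). Fbn1 had 3603 reads (74.2 CPM) in sham unsorted, 535 (11.7 CPM) in sham Lamp1-depleted and 2395 (52.1 CPM) in sham Lamp1-enriched cells, against 4889 (124 CPM), 399 (18.9 CPM) and 7907 (145 CPM) after BLM. Its order of libraries was that of Eln, again with no neighbouring pair within counting error. Mfap4 had 2638 reads (54.3 CPM), 546 (12.0 CPM) and 1478 (32.1 CPM) in the sham libraries, in the same order, and 1212 (30.7 CPM), 213 (10.1 CPM) and 1627 (29.8 CPM) after BLM. Here sham unsorted cells were highest, and sham Lamp1-enriched, BLM unsorted and BLM Lamp1-enriched cells followed without neighbours that differed beyond counting error. A gene annotated on the opposite strand, Gm9913, shares 20.1% of the exonic bases of Fbn1, and the counting is not stated to use strand; Gm9913 had at most 28 reads in any library. Mapk7, with up to 978 reads, shares 4.63% of the exonic bases of Mfap4 from the opposite strand. Also on the opposite strand, Gm30003, with up to 56 reads, shares 3.30% of those of Eln. Gm27177, with up to 5 reads, shares 5.57% of those of Loxl2 in the same way.

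Fbln5 and Efemp2 encode fibulins that elastic fibre assembly requires: Fbln5 brings tropoelastin to microfibrils, and Efemp2 also binds lysyl oxidase. Fbln5 (chr12:101746565-101819055, minus strand) had 782 reads (16.1 CPM) in sham unsorted, 129 (2.83 CPM) in sham Lamp1-depleted and 1391 (30.2 CPM) in sham Lamp1-enriched cells, then 617 (15.6 CPM), 67 (3.17 CPM) and 2167 (39.8 CPM) in the BLM libraries. Efemp2 (chr19:5473954-5482517, plus strand) had 481 reads (9.91 CPM), 78 (1.71 CPM) and 604 (13.1 CPM) in sham, and 403 (10.2 CPM), 51 (2.41 CPM) and 897 (16.5 CPM) after BLM. Both genes were highest in the Lamp1-enriched cells of each treatment. For each, the 2 unsorted libraries did not differ beyond counting error, and neither did the 2 Lamp1-depleted libraries. Mus81, with up to 625 reads, shares 4.57% of the exonic bases of Efemp2 on the opposite strand.

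Fbln1 and Efemp1 belong to the same protein family, but Fbln1 is found in elastic fibres and basement membranes, and Efemp1 is not needed for elastic fibres of the lung in the way Fbln5 is. Fbln1 (chr15:85205949-85286535, plus strand) had 1074 reads (22.1 CPM), 197 (4.32 CPM) and 484 (10.5 CPM) in the sham libraries, and 549 (13.9 CPM), 71 (3.36 CPM) and 760 (13.9 CPM) after BLM. Efemp1 (chr11:28853204-28926743, plus strand) had 1136 reads (23.4 CPM), 178 (3.90 CPM) and 489 (10.6 CPM) in sham, and 411 (10.4 CPM), 16 (0.757 CPM) and 372 (6.82 CPM) after BLM. In contrast to Fbln5 and Efemp2, both were highest in sham unsorted cells. The Fbln1 levels of BLM Lamp1-enriched and BLM unsorted cells lay within counting error of each other, as did those of both Lamp1-depleted libraries. For Efemp1, sham Lamp1-enriched and BLM unsorted cells lay within counting error.

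Because the fibulin genes split in this way, the sequence before each start is shown for these 4 genes, taken from RefSeq (GRCm38.p6); 5 of the 10 genes matched a window there, with 9 windows in all, and the most upstream window was used. Each window holds the 250 bases before a transcription start, given 5′ to 3′ on the strand of the gene. Capitals mark matches on either strand to TATAAA, the letters of a TATA box, to the letters CCAAT of the box so named, to the GC box letters GGGCGG or to the letters CAGAC of a SMAD-binding element; no base lay in more than 1 match. The windows lie at chr12:101819120-101819369 (minus strand) for Fbln5, chr19:5473696-5473945 (plus) for Efemp2, chr15:85205699-85205948 (plus) for Fbln1 and chr11:28852955-28853204 (plus) for Efemp1. All 4 lie upstream of the annotated gene, except for the last base of the Efemp1 window, which is the first of its first exon.
Fbln5: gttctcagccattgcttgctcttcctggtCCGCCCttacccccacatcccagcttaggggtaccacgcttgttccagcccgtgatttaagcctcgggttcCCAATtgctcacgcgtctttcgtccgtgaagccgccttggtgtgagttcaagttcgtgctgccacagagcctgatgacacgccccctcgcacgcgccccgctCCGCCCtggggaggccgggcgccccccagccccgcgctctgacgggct
Efemp2: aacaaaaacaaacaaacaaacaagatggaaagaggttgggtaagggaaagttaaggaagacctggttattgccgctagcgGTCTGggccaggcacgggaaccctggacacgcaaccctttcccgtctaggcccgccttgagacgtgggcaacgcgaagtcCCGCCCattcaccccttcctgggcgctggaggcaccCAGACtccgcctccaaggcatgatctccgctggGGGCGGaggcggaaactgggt
Fbln1: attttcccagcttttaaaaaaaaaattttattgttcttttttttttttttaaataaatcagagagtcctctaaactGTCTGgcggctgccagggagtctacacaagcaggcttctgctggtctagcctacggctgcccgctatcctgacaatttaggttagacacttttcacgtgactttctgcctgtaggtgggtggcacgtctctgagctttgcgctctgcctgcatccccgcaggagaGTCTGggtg
Efemp1: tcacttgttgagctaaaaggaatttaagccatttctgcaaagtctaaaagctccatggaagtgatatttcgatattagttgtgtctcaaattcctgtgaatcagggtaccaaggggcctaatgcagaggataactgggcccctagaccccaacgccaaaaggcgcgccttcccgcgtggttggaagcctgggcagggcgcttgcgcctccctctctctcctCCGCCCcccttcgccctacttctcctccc
The Fbln5 window held 2 matches to GGGCGG and 1 to CCAAT, and the Efemp2 window 2 to GGGCGG and 2 to CAGAC. The Fbln1 window held 2 matches to CAGAC, and the Efemp1 window 1 to GGGCGG. Of 32851 RefSeq windows of this length, 32.7% held GGGCGG, 42.2% CAGAC, 33.8% CCAAT and 12.4% TATAAA, which none of the 4 windows held. GC content was 65.2% for Fbln5, 59.2% for Efemp2, 46.4% for Fbln1 and 53.6% for Efemp1. Other windows of the same genes differed. A further Fbln5 window had 49.6% GC, 2 matches to CAGAC and 0 to GGGCGG. A further Fbln1 window had 62.4% GC, 1 match to GGGCGG and 2 to CAGAC. Further Efemp2 windows had 75.6% and 78.8% GC, each with 5 matches to GGGCGG and 0 to CAGAC. Over all windows of these genes, these letters thus do not set the pairs apart. These matches describe the letters only.

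Lox, Loxl1 and Loxl2 encode lysyl oxidases, copper-dependent enzymes that start the crosslinking of elastin and collagen; Loxl1 is the member known for elastin renewal in adult tissue, and Loxl2 for crosslinking collagens of basement membranes and fibrotic tissue. Lox (chr18:52516067-52529867, minus strand) had 951 reads (19.6 CPM), 175 (3.84 CPM) and 400 (8.69 CPM) in the sham libraries, and 1152 (29.2 CPM), 75 (3.55 CPM) and 1928 (35.4 CPM) after BLM. Lox was highest in BLM Lamp1-enriched cells and was within counting error between both Lamp1-depleted libraries only. Loxl1 (chr9:58287738-58313186, minus strand) had 883 reads (18.2 CPM), 143 (3.14 CPM) and 381 (8.28 CPM) in sham, and 549 (13.9 CPM), 79 (3.74 CPM) and 752 (13.8 CPM) after BLM. Loxl2 (chr14:69609068-69695834, plus strand) had 412 reads (8.49 CPM), 102 (2.24 CPM) and 503 (10.9 CPM) in sham, and 413 (10.5 CPM), 17 (0.805 CPM) and 958 (17.6 CPM) after BLM. Loxl1 was thus highest in sham unsorted and Loxl2 in BLM Lamp1-enriched cells. The 2 BLM libraries from unsorted and Lamp1-enriched cells lay within counting error for Loxl1, as did both Lamp1-depleted libraries, and so did sham Lamp1-enriched and BLM unsorted cells for Loxl2.

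**Figure D1:**
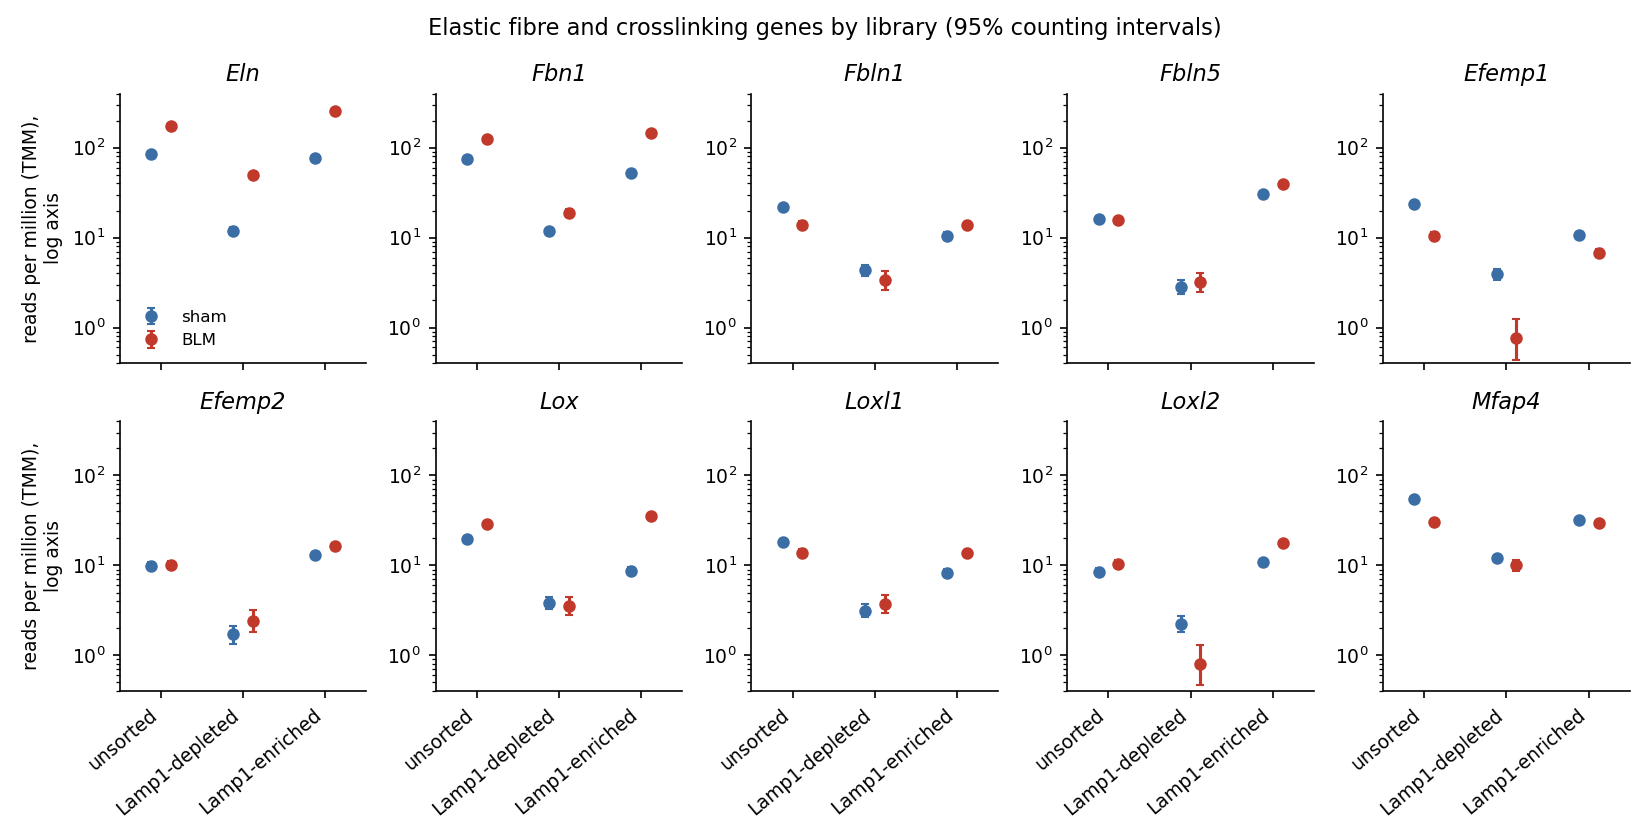
Level of each elastic fibre gene in the 6 libraries, in CPM after TMM scaling on a log axis, with sham in blue and BLM in red and bars for the 95% counting interval of each library (1 library per condition). The Lamp1-depleted libraries are the lowest of their treatment for all 10 genes, and Eln and Fbn1 are higher in BLM than in sham in every fraction under TMM scaling (with total reads, Fbn1 in Lamp1-depleted cells is at -0.03).

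BLM-treated and sham-treated mice were compared first in unsorted cells, to ask how the group changed in the whole lung suspension. Eln was 2.02-fold higher after BLM, with a log2 ratio of 1.01 (0.96 to 1.07), followed by Fbn1 at 0.74 (0.68 to 0.80), Lox at 0.58 (0.45 to 0.70) and Loxl2 at 0.30 (0.10 to 0.50). Efemp1 was 2.25-fold lower, with a log2 ratio of -1.17 (-1.33 to -1.0), and Mfap4 was lower at -0.82 (-0.92 to -0.72), Fbln1 at -0.67 (-0.82 to -0.52) and Loxl1 at -0.39 (-0.54 to -0.23). Eln, Fbn1, Lox and Loxl2 thus stood above 0 and Mfap4, Fbln1, Efemp1 and Loxl1 below it. For Fbln5 and Efemp2 the intervals included 0, at -0.04 (-0.20 to 0.11) and 0.04 (-0.15 to 0.24). The small ratios depended on the scaling: with total reads Fbln5 stood at -0.31, Efemp2 at -0.22 and Loxl2 at 0.04. No gene of the 10 was past the fold, against 4.96% of 22772 genes higher and 4.99% lower. The median of the 10 was 0.00, beside -0.07 over all genes tested, and with scaling by total reads it was -0.26.

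Lamp1-enriched cells were then compared between treatments. Lox was 4.07-fold higher after BLM, with a log2 ratio of 2.02 (1.87 to 2.18), Eln 3.31-fold at 1.73 (1.67 to 1.78) and Fbn1 2.79-fold at 1.48 (1.41 to 1.54). Loxl1 stood at 0.74 (0.56 to 0.92), Loxl2 at 0.68 (0.53 to 0.84), Fbln1 at 0.41 (0.24 to 0.57), Fbln5 at 0.40 (0.30 to 0.49) and Efemp2 at 0.33 (0.18 to 0.48). Efemp1 was lower, at -0.64 (-0.84 to -0.44), and Mfap4 was at -0.11, with an interval of -0.21 to -0.00. In these cells 8 of 10 genes stood above 0, as did 10834 of all genes tested, and the directions were the same under every scaling tried. Only Lox was past the fold, as 1 gene higher and 0 lower, against 3.57% of 21671 genes higher and 2.05% lower. The median of the 10 genes was 0.55, beside 0.00 over all genes.

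In Lamp1-depleted cells the counts were lower and the intervals wider. Eln was 4.11-fold higher after BLM, with a log2 ratio of 2.04 (1.89 to 2.19), and Fbn1 stood at 0.69 (0.50 to 0.88). Efemp1, with 16 reads after BLM, was 5.09-fold lower at -2.35 (-3.20 to -1.63), Loxl2, with 17 reads, stood at -1.46 (-2.31 to -0.73) and Mfap4 at -0.25 (-0.48 to -0.02). For Fbln1, Fbln5, Efemp2, Lox and Loxl1 the interval included 0, with log2 ratios from -0.36 for Fbln1 to 0.49 for Efemp2. Eln was past the fold as the 1 gene higher and Efemp1 as the 1 gene lower, against 5.4% of 20852 genes higher and 7.71% lower. The median of the 10 was 0.03, beside -0.21 over all genes tested. With total reads only, Fbn1, Fbln5, Efemp2 and Loxl1 stood below 0, at -0.03, -0.55, -0.22 and -0.46, the median moved to -0.69, Eln at 1.32 was no longer past the fold and Loxl2 at -2.17 was, beside 3.1% of all genes higher and 15.9% lower. With total reads outside Gm26917 Eln stood at 1.97, just under the fold, and with DESeq2 size factors Lox stood at 0.04 in place of -0.11.

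**Figure D2:**
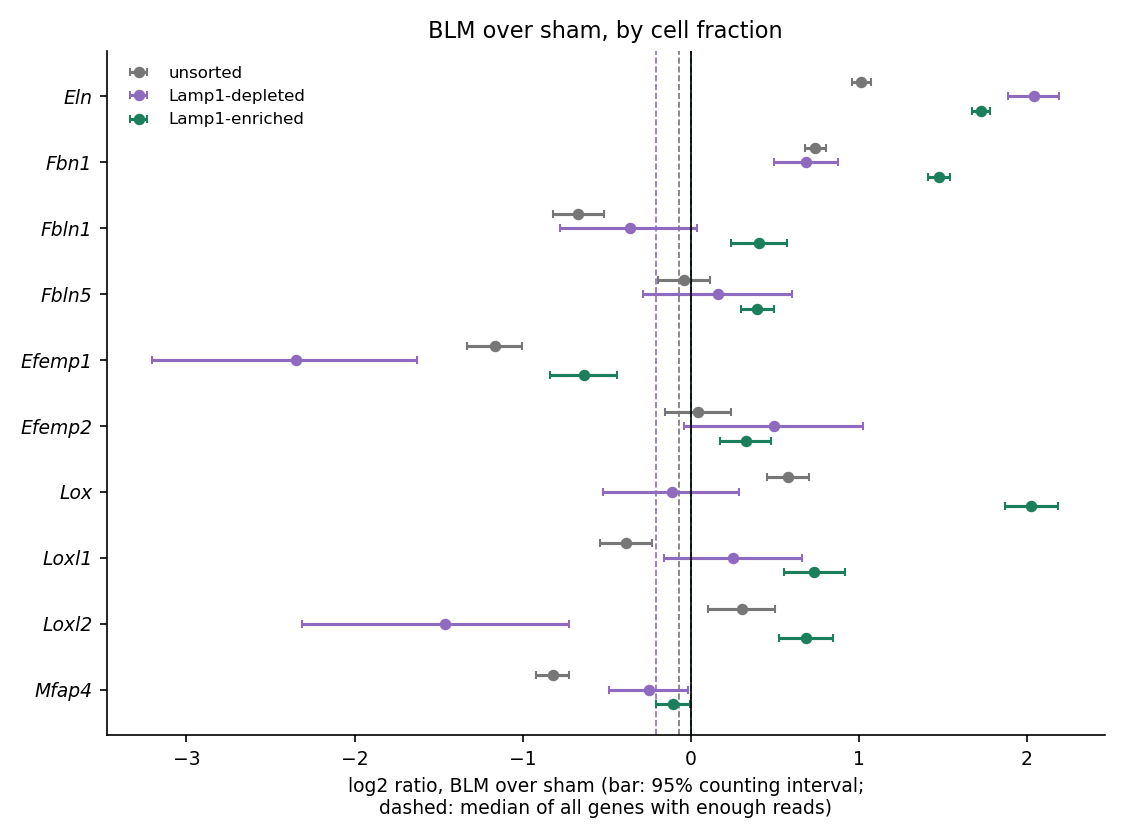
Log2 ratio of BLM over sham for each gene in unsorted, Lamp1-depleted and Lamp1-enriched cells, with bars for the 95% counting interval and dashed lines for the median of all genes with enough reads. Eln lies above 0 in all 3 fractions and Efemp1 below 0 in all 3, and Lox is highest in Lamp1-enriched cells at 2.02.

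The sorted fractions were compared to ask where the transcripts of the group lay with respect to surface Lamp1. In sham-treated mice all 10 genes were higher in Lamp1-enriched than in Lamp1-depleted cells, under every scaling tried, as were 49.4% of all genes tested. The assembly fibulins led, with Fbln5 10.6-fold higher at a log2 ratio of 3.41 (3.16 to 3.69) and Efemp2 7.63-fold at 2.93 (2.60 to 3.30). Eln stood at 2.69 (2.56 to 2.82), Loxl2 at 2.28 (1.98 to 2.61) and Fbn1 at 2.15 (2.01 to 2.29). Efemp1, Mfap4, Loxl1, Fbln1 and Lox were between 1.18 for Lox and 1.44 for Efemp1. Past the fold were 5 of 10 genes higher and 0 lower, against 15.6% of 21867 genes higher and 12.6% lower. With total reads, with or without Gm26917, it was 4 of 10, as Fbn1 stood at 1.97 and 1.94, beside 13.9% and 13.5% of all genes higher. The median of the 10 was 1.79, beside -0.01 over all genes.

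In BLM-treated mice all 10 genes were again higher in Lamp1-enriched cells under every scaling tried, as were 57.2% of all genes tested. The crosslinking enzyme Loxl2 was 21.5-fold higher, at 4.43 (3.76 to 5.24) from 17 reads in Lamp1-depleted cells, Fbln5 12.5-fold at 3.64 (3.30 to 4.02) and Lox 9.93-fold at 3.31 (2.98 to 3.67). Efemp1 stood at 3.15 (2.45 to 3.99), Fbn1 at 2.94 (2.80 to 3.09), Efemp2 at 2.76 (2.36 to 3.21), Eln at 2.38 (2.29 to 2.47) and Fbln1 at 2.05 (1.70 to 2.43). Loxl1 and Mfap4 were under the fold, at 1.88 (1.55 to 2.24) and 1.57 (1.36 to 1.78). That made 8 of 10 genes higher and 0 lower, against 19.3% of 21838 genes higher and 12% lower. These calls depended on the scaling: with total reads all 10 were past the fold, Loxl1 at 2.44 and Mfap4 at 2.12, beside 26.4% of all genes higher. With DESeq2 size factors or total reads outside Gm26917 it was 7, as Fbln1 stood at 1.90 and 1.93, beside 17.6% and 18% of all genes. The median was 2.85, beside 0.29 over all genes. Loxl2 and Lox differed most between treatments, by 2.15 (1.40 to 2.89) and 2.13 (1.72 to 2.55) on the log2 scale, in the same direction under every scaling of all 6 libraries. The Eln difference was -0.31 (-0.47 to -0.15) but 0.42 with total reads, so its direction turned with the scaling; these differences cover counting error only and were not tested.

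Lamp1-enriched cells were also compared with the unsorted suspension, which gives what the sort gained over the whole. In sham-treated mice only Fbln5 at 0.91 (0.78 to 1.04), Efemp2 at 0.41 (0.23 to 0.58) and Loxl2 at 0.36 (0.17 to 0.56) were higher in Lamp1-enriched cells. Lox at -1.17 (-1.34 to -1.0), Efemp1 at -1.14 (-1.29 to -0.98), Loxl1 at -1.13 (-1.31 to -0.96) and Fbln1 at -1.07 (-1.23 to -0.92) were lower, each by more than 2-fold. Mfap4 stood at -0.76 (-0.85 to -0.67), Fbn1 at -0.51 (-0.59 to -0.44) and Eln at -0.14 (-0.21 to -0.08). None was past the fold, against 0.435% of 22323 genes higher and 4.81% lower, and the median was -0.63 beside -0.03 over all genes.

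After BLM, 7 of the 10 genes stood above 0, beside 52.0% of all genes tested. Fbln5 was at 1.35 (1.22 to 1.48), Loxl2 at 0.75 (0.58 to 0.92), Efemp2 at 0.69 (0.52 to 0.86), Eln at 0.57 (0.53 to 0.62), Lox at 0.28 (0.17 to 0.38) and Fbn1 at 0.23 (0.18 to 0.28). Efemp1 alone was lower beyond counting error, at -0.61 (-0.82 to -0.40). Fbln1, Loxl1 and Mfap4 lay within counting error of 0, at 0.00, -0.01 and -0.04, and changed sign with the scaling. None was past the fold, against 2.34% of 22149 genes higher and 8.95% lower, and the median was 0.25 beside 0.04 over all genes. Eln, Fbn1 and Lox were thus on the lower side in sham and on the higher side in BLM. The move itself was not particular to them, as the ratio was higher in BLM than in sham for each of the 10 genes. The difference ran from 0.28 (0.04 to 0.52) for Efemp2 to 1.45 (1.25 to 1.65) for Lox. It was 0.71 for Eln, 0.74 for Fbn1, 0.72 for Mfap4, 1.07 for Fbln1 and 1.12 for Loxl1. These values cover counting error only and were not tested.

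In sham-treated mice the unsorted library was above both sorted libraries for 7 of the 10 genes, Eln, Fbn1, Fbln1, Efemp1, Lox, Loxl1 and Mfap4, under each of 4 scalings, so that no mixture of the sorted libraries at these levels gives the unsorted one. Among 23233 genes with at least 10 reads in 1 of the 3 libraries, 25.7% were above both. After BLM it was 3 genes, Efemp1, Loxl1 and Mfap4, beside 26.4% of 22801 genes, and between 1 and 4 genes under the other scalings. This count was chosen after the values were seen, and its cause was not tested.

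**Figure D3:**
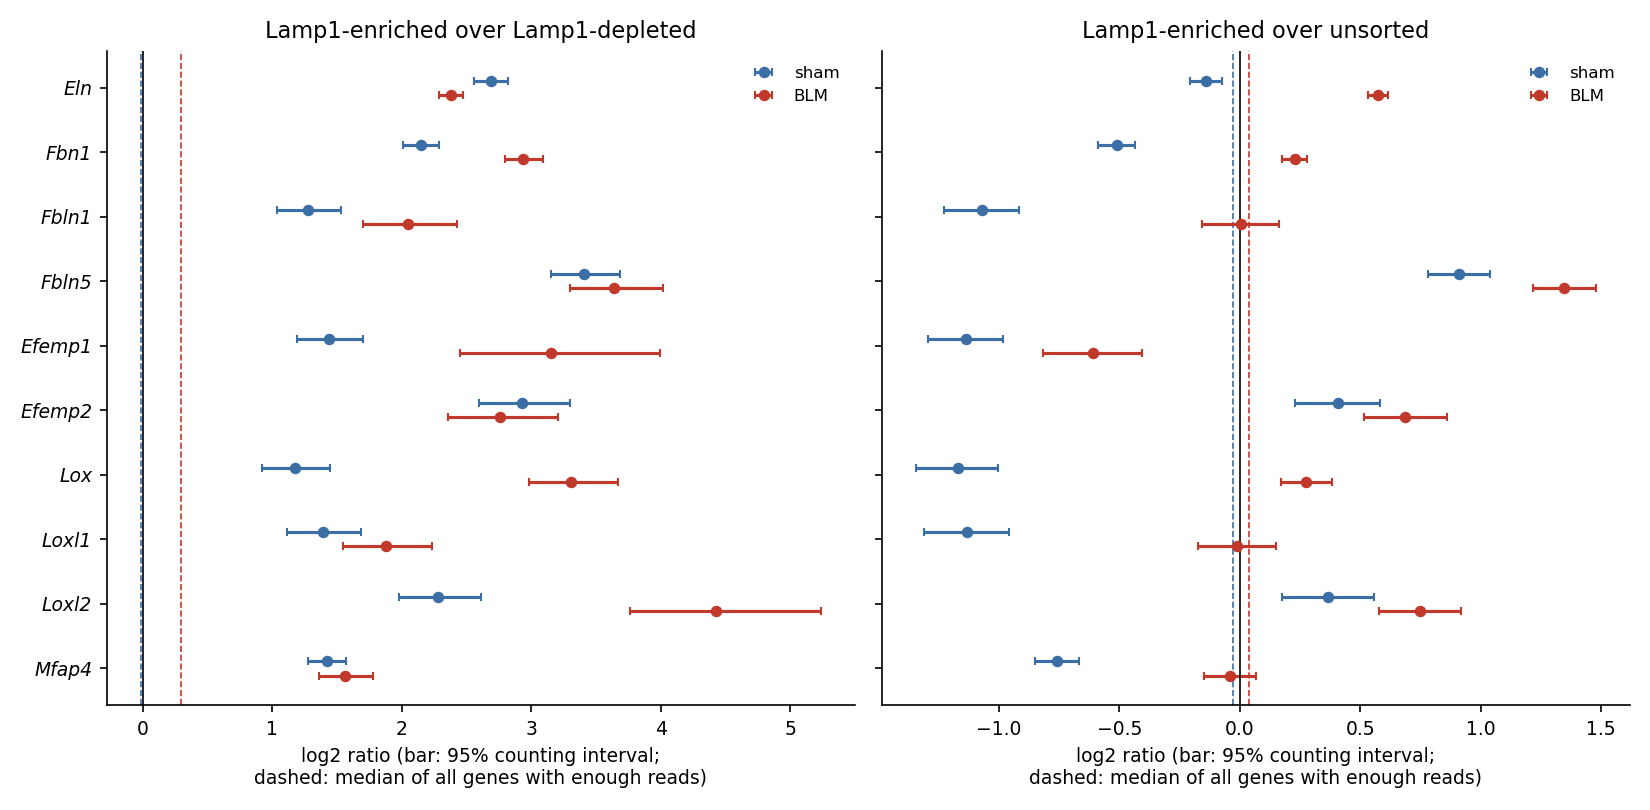
Log2 ratio of Lamp1-enriched over Lamp1-depleted cells (left) and over unsorted cells (right) for each gene, in sham (blue) and BLM (red), with bars for the 95% counting interval and dashed lines for the median of all genes with enough reads. All 10 genes lie above 0 on the left in both treatments; on the right, Lox moves from -1.17 in sham to 0.28 in BLM.

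To compare genes with each other, CPM was divided by the exonic length of each gene in kilobases. In sham unsorted cells Mfap4 held 36.4% of the summed level of the 10 genes, Efemp1 14.8% and Eln 13.6%. In BLM unsorted cells Eln held 29.1%, Mfap4 21.9% and Fbn1 14.0%. Per length, Eln thus took the leading place from Mfap4 in unsorted cells. In CPM not divided by length, Eln was above Mfap4 in both, at 85.3 against 54.3 CPM in sham and 172 against 30.7 CPM in BLM unsorted cells. The per-length share of Eln went from 10.1% to 35.5% in Lamp1-depleted and from 18.2% to 34.9% in Lamp1-enriched cells. The share of Efemp1 was 14.8%, 13.1% and 9.96% in the sham libraries (unsorted, Lamp1-depleted, Lamp1-enriched), and 7.01%, 2.17% and 3.70% after BLM.

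Ratios of genes within a library do not depend on the scaling. They do depend on the exonic length taken for each gene, over all its annotated transcripts, which the intervals treat as exact. The per-length ratio of Eln to Mfap4 was 0.372 (0.355 to 0.391) in sham unsorted and 1.33 (1.25 to 1.42) in BLM unsorted cells, and 0.571 (0.538 to 0.607) and 2.04 (1.94 to 2.15) in Lamp1-enriched cells. In Lamp1-depleted cells it was 0.237 (0.210 to 0.268) in sham and 1.16 in BLM, where the interval, up to 1.35, reached 1 at its lower end, so that Eln and Mfap4 were not set apart there. Eln over Fbn1 went from 1.72 (1.65 to 1.80) to 2.08 (2.00 to 2.16) in unsorted, from 1.53 (1.35 to 1.73) to 3.91 (3.48 to 4.40) in Lamp1-depleted and from 2.23 (2.11 to 2.34) to 2.65 (2.57 to 2.72) in Lamp1-enriched cells. Lox over Loxl1 was 0.743 (0.677 to 0.815) in sham and 1.45 (1.31 to 1.61) in BLM unsorted cells, and 0.724 (0.628 to 0.836) and 1.77 (1.62 to 1.93) in Lamp1-enriched cells. Per length, Lox was thus the lower of the pair in these sham libraries and the higher after BLM. By reads alone Lox was the higher in sham too, at 951 against 883 in unsorted and 400 against 381 in Lamp1-enriched cells. In Lamp1-depleted cells the per-length ratio was 0.844 (0.673 to 1.06) in sham and 0.655 (0.471 to 0.910) in BLM. The 3 crosslinking enzymes together held 1.06 times the level of Eln in sham unsorted and 0.577 times in BLM unsorted cells. They held 0.665 and 0.469 times in Lamp1-enriched cells, and 1.47 and 0.333 times in Lamp1-depleted cells, in the same order. Fbln5 over Fbln1 followed the sort more than the treatment, at 1.82 and 1.80 in sham and BLM Lamp1-enriched cells, and from 0.414 to 0.710 in the remaining 4.

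**Figure D4:**
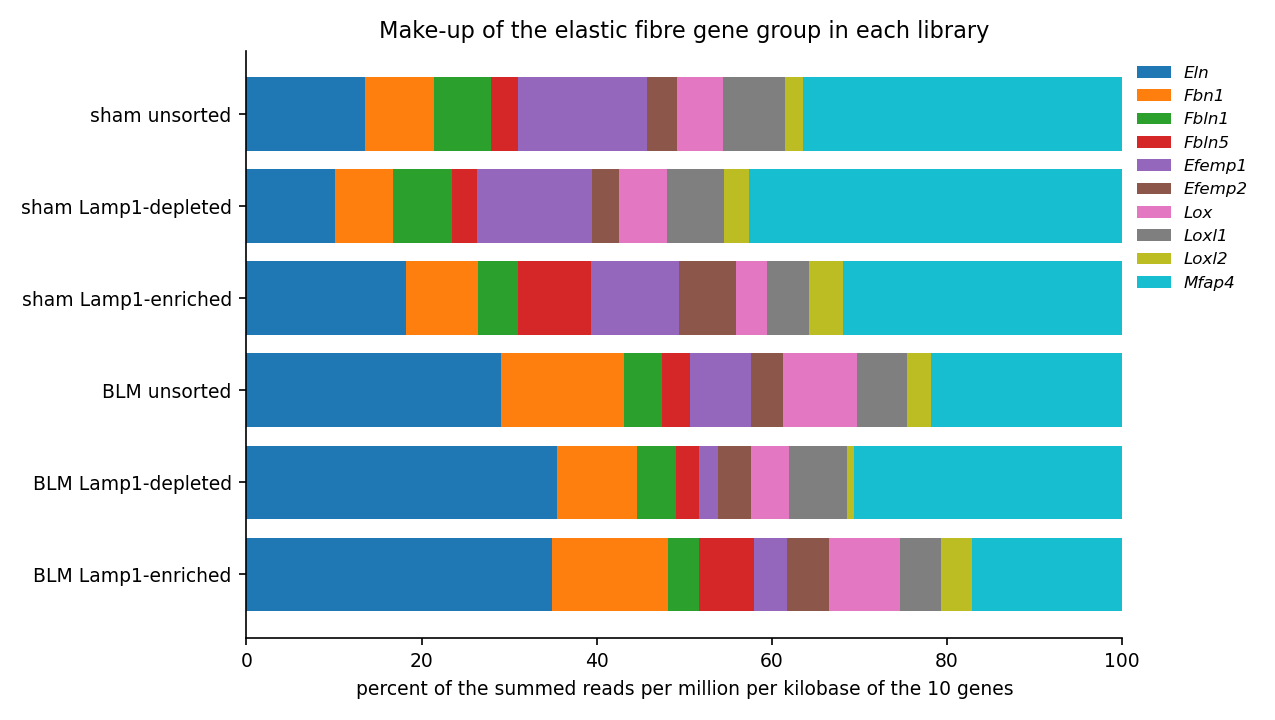
Share of each gene in the summed level per kilobase of the 10 genes, in percent, for each library. Eln takes 13.6% in sham unsorted and 29.1% in BLM unsorted cells, and Mfap4 36.4% and 21.9%.

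Beyond the 10 genes, 20 other genes of elastic fibres and microfibrils were counted, among them the latent TGF-beta binding proteins, further fibulins, emilins and multimerins. Between sham Lamp1-enriched and Lamp1-depleted cells, 14 of 18 tested were past the fold higher and 1 lower, against 15.6% and 12.6% of all genes tested, with a median of 2.64. The largest were Mmrn1 at 3.42 (3.24 to 3.60) and Mmrn2 at 3.33 (3.20 to 3.46), multimerins of endothelial cells, then Ltbp1 at 3.31, Ltbp2 at 3.13, Vtn at 3.05 and Mfap2, a microfibril component, at 2.97. After BLM 14 of 20 were higher by log2 ratio, 13 with a gene at 0 reads set at its bound, and 1 lower, against 19.3% and 12% of all genes, with a median of 2.58 (2.53 with the bound). Fbln7 was at 11 reads against 0, at least 1.42-fold higher and so not shown to be past the fold, and Ltbp1 at 4.17, Mmrn2 at 4.03, Hmcn1 (16.0-fold), Vtn at 3.21 (1.44 to 6.44; 53 reads against 2) and Mfap2 at 3.09 followed. The gene lower in both treatments was Emilin2, an emilin found in blood cells too, at -2.20 (-2.37 to -2.03) and -2.71 (-2.83 to -2.60), named after its values were seen.

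Between BLM and sham, few genes of that list were past the fold. In unsorted cells 1 of 19 was higher, Emilin2 at 2.34 (2.23 to 2.44), and 1 lower, Vtn, a plasma and matrix adhesion protein, at -2.74 (-3.27 to -2.27), against 4.96% and 4.99% of all genes tested, with a median of 0.14. In Lamp1-enriched cells 2 of 20 were higher by log2 ratio, Emilin3 at 2.54 (0.26 to 8.52) from 10 reads against 1 and the microfibril gene Mfap5 at 2.06 (1.78 to 2.35). Emilin3 entered the comparison only through its BLM library, at the read minimum, so that no difference is read from it. Lower were 2, Vtn at -2.87 (-3.33 to -2.46) and Mmrn1 at -2.32 (-2.44 to -2.21). The shares of all genes were 3.57% higher and 2.05% lower, and the median of the list was 0.52. In Lamp1-depleted cells 1 of 18 was higher by log2 ratio, Fbn2 at 3.12 (1.20 to 6.66) from 10 reads against 2, and 1 lower, Vtn at -3.03 (-6.27 to -1.23). Fbn2 too entered the comparison only through its BLM library, at the read minimum, so that no difference is read from it. The shares of all genes were 5.4% higher and 7.71% lower, and the median of the list was 0.41. Against unsorted cells, 0 of 18 in sham were past the fold (all genes 0.435% higher and 4.81% lower), with a median of 0.15, and after BLM 1 of 20, Emilin2 at -2.64 (-2.75 to -2.54), was lower (all genes 2.34% higher and 8.95% lower), with a median of 0.22.

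A further list grouped proteases around elastin breakdown with inhibitors, and being on it does not say that a protease cleaves elastin. Of its 19 genes, 14 had enough reads to be tested after BLM in unsorted cells. Past the fold were 7 higher and 0 lower, against 4.96% and 4.99% of all genes tested, and the median was 2.07. Leukocyte markers moved beside them, with 4 of 8 past the fold higher, 0 lower, 5 of 8 above 0 and a median of 1.69. Cd79a, Nkg7 and Cd3e went the other way, from 27.5 to 10.1, 4.18 to 2.61 and 6.7 to 5.65 CPM. The part of these markers in the result was not tested. Mmp12, the macrophage elastase, led at 6.00 (5.84 to 6.16), from 6.45 to 412 CPM. The cysteine cathepsins Ctss at 4.57 (4.52 to 4.61), Ctsk at 4.43 (4.31 to 4.57) and Ctsb at 3.12 (3.08 to 3.16) followed, with the metalloproteinase inhibitor Timp1 at 3.07 (2.64 to 3.56) and the membrane metalloproteinase Mmp14 at 2.63 (2.53 to 2.74). In Lamp1-enriched cells 5 of 15 were higher by log2 ratio, 4 with a gene at 0 reads set at its bound, and 0 lower, against 3.57% and 2.05% of all genes, with a median of 0.77. There Mmp12 was at 4.18, Timp1 at 3.06, Ctsk at 2.96 and Ctss at 2.70, and Prtn3 at 12 reads against 0, at least 3.38-fold and so not shown to be past the fold. In Lamp1-depleted cells 6 of 14 were higher and 0 lower, against 5.4% and 7.71% of all genes, with a median of 1.41: Mmp12 at 3.85, Slpi at 2.93, Timp1 at 2.82, Ctsk at 2.81, Mmp9 at 2.57 and Mmp14 at 2.24. Of the leukocyte markers, 1 of 8 was past the fold higher there and 1 lower, with 3 of 8 above 0 and a median of -0.24. In Lamp1-enriched cells 1 of 8 was higher and 0 lower, with 4 of 8 above 0 and a median of 0.54.

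In the BLM comparison of Lamp1-enriched with unsorted cells, 6 of 15 of these genes stood above 0. Past the fold were 5 lower, 4 proteases and the inhibitor Slpi, and 0 higher, against 8.95% and 2.34% of all genes, with a median of -0.67: Ctsk at -3.20, Ctss at -3.05, Mmp12 at -3.02, Slpi at -2.39 and Ctsb at -2.15. Leukocyte markers again moved beside them, with 5 of 8 past the fold lower, 0 of 8 above 0 and a median of -2.59, which was not tested either. Against Lamp1-depleted cells 5 of 15 were higher by log2 ratio, 4 with Prtn3 set at its bound, and 1 lower, against 19.3% and 12% of all genes, with a median of 1.35 (1.23 with the bound). The metalloproteinase inhibitors led there, with Timp3 at 3.35, Timp2 at 2.91 and Timp1 at 2.63; Mmp2 was at 2.32, Prtn3 at 12 reads against 0, at least 1.55-fold, and the neutrophil gelatinase Mmp9 was lower, at -2.33. In sham, 4 of 14 were higher, Timp3 at 2.78, Timp2 at 2.49, Timp1 at 2.39 and Ctsl at 2.27, and 1 lower, Ctss at -2.80, against 15.6% and 12.6% of all genes, with a median of 0.80. Against sham unsorted cells 0 of 14 were past the fold (all genes 0.435% higher and 4.81% lower), with a median of 0.02.

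Marker genes of the cell types a lung suspension can hold moved beside these values, and their part in the results was not tested. The 10 elastic fibre genes summed to 332 CPM in sham unsorted, 57.7 CPM in sham Lamp1-depleted and 254 CPM in sham Lamp1-enriched cells, against 431, 96.1 and 575 CPM after BLM. Eln carried much of that difference: the other 9 genes summed to 246 and 258 CPM in sham and BLM unsorted cells, to 45.7 and 46.8 CPM in Lamp1-depleted and to 177 and 319 CPM in Lamp1-enriched cells. The summed level of the 10 fibroblast markers went from 519, 85.2 and 254 CPM in sham to 167, 52.5 and 152 CPM after BLM. In Lamp1-enriched cells Inmt alone went from 110.2 to 17.9 CPM. By gene, 3 of 10 stood above 0 in unsorted, 1 in Lamp1-depleted and 5 in Lamp1-enriched cells, with medians of -1.04, -1.22 and -0.15, beside 46.4%, 41.8% and 10834 of 21671 of all genes tested above 0. The markers were thus mostly lower in unsorted and Lamp1-depleted cells and split in Lamp1-enriched cells. Their most abundant gene was Inmt in the sham libraries (237 CPM unsorted) and after BLM Dcn in unsorted, Pi16 in Lamp1-depleted and Pdgfra in Lamp1-enriched cells; none was at 0. The 6 activated fibroblast markers summed to 211, 35.1 and 174 CPM in sham and to 495, 108 and 551 CPM after BLM, led there by Col1a1 at 415, 91.1 and 444 CPM. Col1a1 carried most of that sum: in unsorted cells only Col1a1 and Tnc, 2 of 6, stood above 0, with a median of -0.48, and Postn went from 103 to 28.4 CPM. In Lamp1-depleted cells 3 of 5 and in Lamp1-enriched cells 5 of 6 stood above 0; Cthrc1 was at 0 in BLM Lamp1-depleted cells. Fibroblast markers past the fold after BLM numbered 0 of 10 higher and 2 lower in unsorted, 1 higher and 0 lower in Lamp1-depleted, and 0 higher and 1 lower in Lamp1-enriched cells. Of the activated markers 2 were higher and 0 lower in each fraction, of 6, 5 and 6 tested; the shares of all genes were 4.96% and 4.99%, 5.4% and 7.71%, and 3.57% and 2.05%.

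Smooth muscle markers (6 genes) summed to 69.5, 10.5 and 74.7 CPM in the sham libraries, led by Des, and to 39.7, 13.5 and 76.1 CPM after BLM, led by Acta2, with Cnn1 at 0 in BLM Lamp1-depleted cells. Pericyte markers (6) summed to 202, 32.4 and 227 CPM in sham and 131, 24.8 and 98.2 CPM after BLM, led by Notch3 except in BLM unsorted cells, where Cspg4 led. Both lists thus had their lowest sum in Lamp1-depleted cells, as did the elastic fibre genes and every other marker list except the leukocyte one. Mesothelial markers (6) were low throughout, at 24.8, 5.18 and 5.63 CPM in sham and 32.3, 5.35 and 12.5 CPM after BLM, led by Upk1b or Msln. Between sham Lamp1-enriched and unsorted cells, 4 of 6 mesothelial markers were past the fold lower and 0 higher, while 0 of 10 fibroblast markers were past it, though all 10 stood below 0 with a median of -0.89; over all genes the shares were 0.435% higher and 4.81% lower.

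Endothelial markers (6) followed the sort: they summed to 4896, 1165 and 8843 CPM in sham and 3420, 904 and 9726 CPM after BLM, led by Cdh5, Pecam1 or Vwf, with all 6 past the fold on the Lamp1-enriched side of the sort in each treatment, against 15.6% (sham) and 19.3% (BLM) of all genes. They were not alone. In sham 5 of 6 pericyte, 4 of 6 epithelial and 3 of 5 smooth muscle markers were past the fold on that side. So were 2 of 6 activated fibroblast and 2 of 10 fibroblast markers. After BLM it was 4 of 6, 1 of 6, 5 of 6, 5 of 6 and 7 of 10 in the same order, with 1 fibroblast marker lower. Mesothelial markers had 0 of 6 higher in sham and 2 of 6 in BLM, with 1 lower in each. Leukocyte markers (8) summed to 2835, 4677 and 1131 CPM in sham, led by Lyz2 or, in Lamp1-depleted cells, Ptprc, and after BLM to 20060 CPM in unsorted cells, led by Lyz2, and to 4024 and 2595 CPM in the sorted ones. Of these, 5 were past the fold lower in Lamp1-enriched than in Lamp1-depleted cells in sham and 4 in BLM, with 0 higher in either, against 12.6% and 12% of all genes lower. In each treatment 2 of 8, Marco and Chil3, went the other way. Chil3 was at 79.6 CPM in Lamp1-enriched and 76.0 CPM in Lamp1-depleted cells in sham, and at 196 and 141 CPM after BLM. Lyz2 after BLM was close in both, at 2190 and 2388 CPM. The Lamp1-depleted libraries, lowest for the elastic fibre genes, thus had higher leukocyte and lower endothelial and fibroblast sums than the Lamp1-enriched ones. Epithelial markers (6) were at 1129, 135 and 826 CPM in sham and 349.8, 119 and 251.5 CPM after BLM, led by Sftpc (Scgb1a1 in BLM Lamp1-depleted cells), with none at 0, as a lung label requires.

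**Figure D5:**
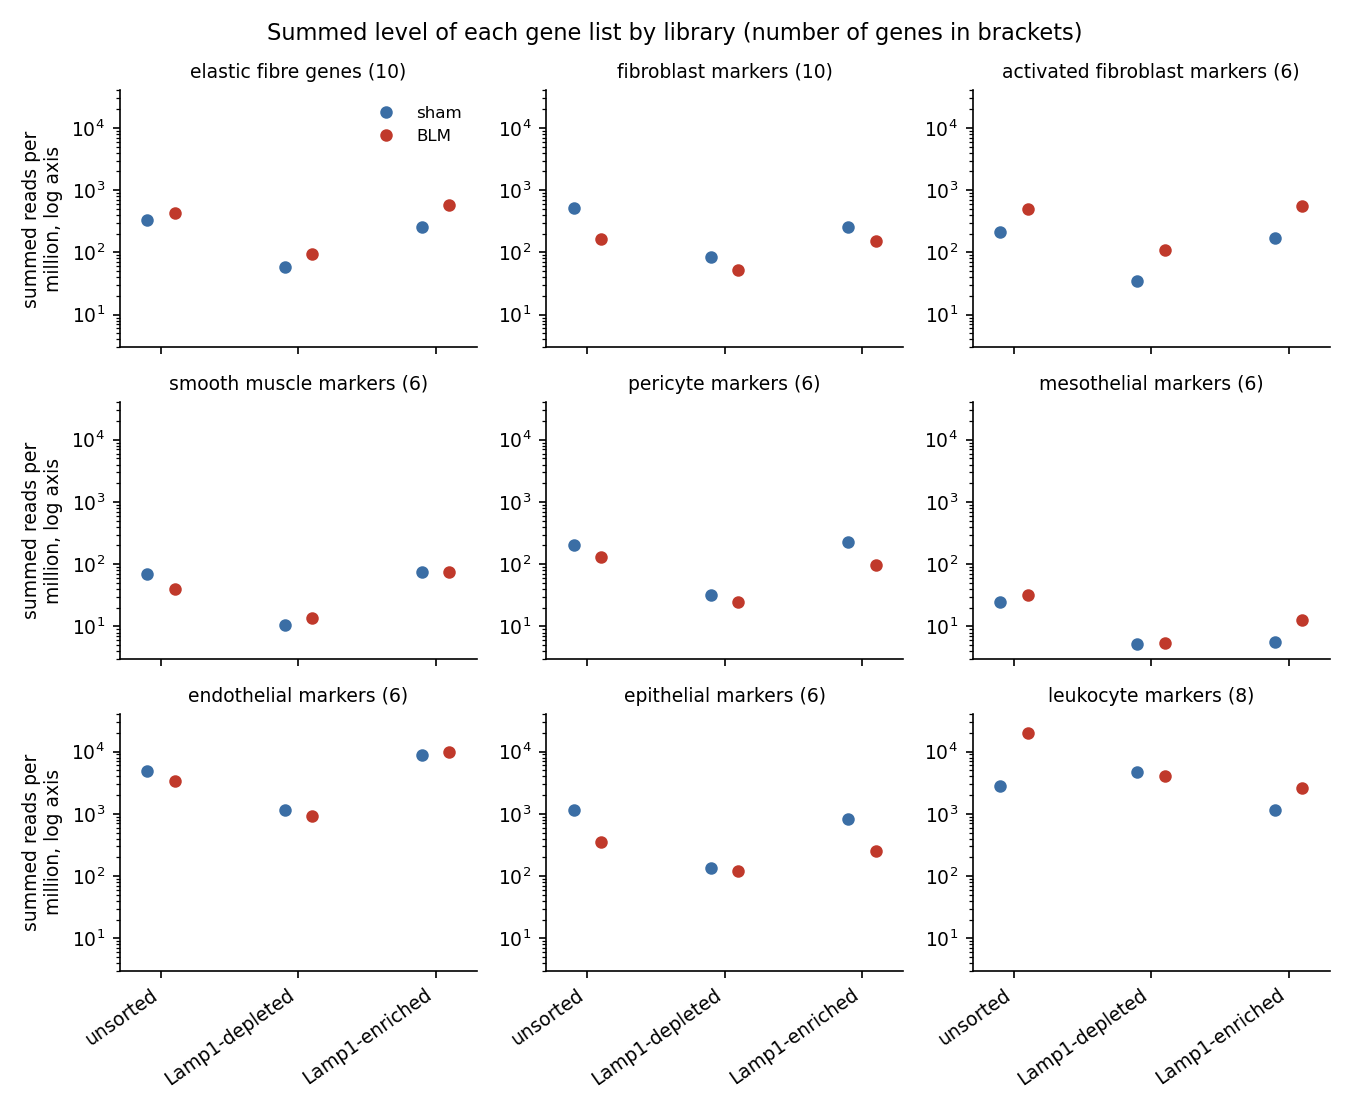
Summed level of the 10 elastic fibre genes and of each marker list in the 6 libraries, in CPM on a log axis, with sham in blue and BLM in red. The sums of the elastic fibre genes and of the activated fibroblast markers are higher in BLM than in sham in every fraction under TMM scaling, and the sum of the fibroblast markers lower; without Eln, the elastic fibre sum is 246 and 258 CPM in sham and BLM unsorted cells and 45.7 and 46.8 CPM in Lamp1-depleted cells. Single genes of a marker list differ in direction.

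For each gene the closest pattern over the 6 libraries was sought among 17935 genes with at least 50 reads in their highest library, as the smallest root mean square difference of centred log2 CPM. Outside the list, the closest genes were Tmem255b for Eln (0.097), Prrg3 for Fbn1 (0.111), Gpr161 for Fbln1 (0.116), Ephb4 for Fbln5 (0.0877) and Abca8a for Efemp1 (0.232). They were Frmd4a for Efemp2 (0.116), Pappa2 for Lox (0.241), Hipk4 for Loxl1 (0.132), Tmtc3 for Loxl2 (0.202) and Adh1 for Mfap4 (0.0546). Within the list, Fbn1 and Lox were closest to each other (0.317), as were Fbln5 and Efemp2 (0.316) and Fbln1 and Mfap4 (0.201). Eln was closest to Fbn1 (0.44), Loxl1 to Fbln1 (0.218), Loxl2 to Fbln5 (0.543) and Efemp1 to Fbln1 (0.776), the least like any other member.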

How the data were processed

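Per the file headers and the labels, the authors deposited the count of raw reads on every gene for the 6 libraries, sequenced from both read ends; the submitters' processing notes list Trimmomatic 0.36, STAR 2.5.2b, featureCounts, Subread 1.5.2, DESeq2 and GRCm38, and the strand setting of the counting is not given in the sources used here. Libraries were scaled with edgeR 4.0.16 (R 4.3.3) by TMM, with factors (unsorted, Lamp1-depleted, Lamp1-enriched) of 1.19, 1.15 and 1.02 in sham and 0.993, 0.699 and 1.03 in BLM. Log2 ratios added 0.5 reads, adjusted for library size, as a prior count; programs ran under Python 3.11.15 and used pandas 2.3.3, numpy 2.4.6, matplotlib 3.10.9 and scipy 1.17.1. Intervals of ratios are 95% Clopper-Pearson intervals of the share of reads, and those of levels are exact Poisson intervals. A gene at 0 reads gave a bound against 3 reads per library. Exonic lengths, positions and overlaps came from GENCODE M21 (GRCm38). The programs were tested on simulated counts. All 10 genes were named; of the wider lists, at most 6 genes past the fold per comparison, largest first. The members and the lists were chosen with earlier results of these data known. Alternatives were DESeq2 1.42.0 size factors, total reads with and without Gm26917, prior counts of 2 and 0.25, other read minimums and folds, and TMM over 5 libraries, the last chosen after seeing the data.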

Additional observations from a re-analysis of the deposited data

Results flagged for a closer look

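Results are given here where the same contrast went opposite ways in 2 settings and both counting intervals excluded 0; with 1 library per condition, the difference itself was not tested, and the values in brackets cover counting error only. Lamp1-enriched over unsorted cells was below 0 in sham and above 0 in BLM for Eln (-0.14 and 0.57, a difference of 0.71, 0.64 to 0.79), Fbn1 (-0.51 and 0.23, a difference of 0.74, 0.65 to 0.83) and Lox (-1.17 and 0.28, a difference of 1.45, 1.25 to 1.65). BLM over sham was above 0 in Lamp1-enriched and below 0 in unsorted cells for Fbln1 (0.41 and -0.67, a difference of 1.07, 0.85 to 1.30) and Loxl1 (0.74 and -0.39, a difference of 1.12, 0.89 to 1.36). These 5 went opposite ways under each of 4 other scalings. Both contrasts use the same 4 libraries. The difference was above 0 for each of the 10 genes, so that these 5 stand out by crossing 0 and not by its size. Mfap4, which did not cross, differed by 0.72 (0.58 to 0.86). Loxl2 was below 0 in BLM over sham in Lamp1-depleted cells and above 0 in unsorted cells (-1.46 and 0.30, a difference of -1.76, -2.52 to -1.01). The intervals of this pair lay on opposite sides under 1 of 3 other scalings. Loxl2 was also above 0 in Lamp1-enriched cells, at 0.68 (0.53 to 0.84). With DESeq2 size factors, total reads and total reads outside Gm26917 it stood there at 0.67, 0.70 and 0.71. In Lamp1-depleted cells it stood at -1.31, -2.17 and -1.535 in the same order. Both pairs rest on 17 reads in BLM Lamp1-depleted cells.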

How the results depend on the processing

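Of 400 single-gene log2 ratios under other scalings and prior counts, 330 moved by less than their counting error, 70 by more, and 14 changed sign, none of them past the fold. The prior counts could hardly move a ratio, as no gene had fewer than 16 reads, so the pooled count makes the scalings look milder than they were. Efemp1, at 16 reads, went from -2.35 to -2.30 in Lamp1-depleted BLM over sham with a prior count of 2. Scaling by total reads shifted all genes by -0.26, -0.72, -0.17, 0.56 and -0.22 in BLM over sham unsorted and Lamp1-depleted, Lamp1-enriched over Lamp1-depleted in sham and BLM, and Lamp1-enriched over unsorted in sham. The medians of the 10 genes in these comparisons moved with it, to -0.26, -0.69, 1.62, 3.41 and -0.86. With total reads outside Gm26917 the median was -0.18 for BLM over sham unsorted, 1.58 for Lamp1-enriched over Lamp1-depleted and -0.87 against unsorted cells in sham, with shifts of -0.18, -0.21 and -0.23, and all genes shifted by -0.12 in Lamp1-enriched over Lamp1-depleted after BLM. DESeq2 size factors shifted Lamp1-depleted BLM over sham by 0.15 and Lamp1-enriched over Lamp1-depleted after BLM by -0.15. In Lamp1-depleted cells BLM over sham, total reads left 0 genes higher and 2 lower past the fold (all genes 3.1% and 15.9%), and total reads outside Gm26917 left 0 higher (5.08%). With the threshold set to 1 on the log2 scale, the genes past the fold, with the share of all genes in brackets, were 1 higher (13.9%) and 1 lower (16%) in BLM over sham unsorted, 2 lower (22.3%) in Lamp1-depleted and 3 higher (10.2%) in Lamp1-enriched cells, 10 higher (27.5%) in Lamp1-enriched over Lamp1-depleted in sham, 4 lower (15.8%) over unsorted in sham and 1 higher (12.6%) over unsorted in BLM. With it set to 3 they were 0 higher (2.56%) and 0 lower (3.9%) in Lamp1-depleted BLM over sham, 0 higher (1.34%) in Lamp1-enriched, and in Lamp1-enriched over Lamp1-depleted 1 higher (6.19%) in sham and 4 higher (10.7%) in BLM. Filters and prior counts left every count of the 10 genes within 1.5 times its value. So did TMM over the 5 libraries other than BLM Lamp1-depleted, chosen after seeing the data, where it applied. The shares of all genes moved more. With no read minimum, 13.7% were lower in BLM over sham unsorted and 15.2% higher in BLM over sham Lamp1-depleted. With at least 50 reads, 0.471% were higher in Lamp1-enriched over unsorted after BLM and 0.0309% in sham. With a prior count of 2 that sham share was 0.215%. No replicate could be left out, and low counts limit Efemp1 and Loxl2 in BLM Lamp1-depleted cells.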
